A study of Mus musculus with 5 samples.

Results

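The tetraspanins of RAW264.7 cells are described here, as the genes with a value in the deposited expression table whose symbol starts with Tspan and a number, or is Cd9, Cd37, Cd53, Cd63, Cd81, Cd82, Cd151 or Rom1. The rule found 25 genes of the 16003 with a value, and 3 further symbols of the family were listed with no value. RAW264.7 is a mouse monocyte/macrophage line that can form osteoclast-like cells. All cells carried Renilla luciferase, the control cells alone and the CD137 cells together with mouse Cd137, a costimulatory TNF-family receptor whose gene is Tnfrsf9. Of 5 samples in the study, 3 have values here: control replicate 2, CD137 replicate 2 and CD137 replicate 3. The sources used here give neither the vector nor whether the lines were clones or pools. The study is concerned with migration and osteoclast differentiation of these cells, and the comparison asks how the transcriptome differs when Cd137 is introduced.

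Tetraspanins are small proteins that cross the membrane several times and expose a short and a long extracellular loop, the long one with a conserved CCG motif and paired cysteines. They have no enzymatic activity of their own. They bind each other and partner proteins such as integrins, immunoglobulin-like proteins and the protease ADAM10, and so arrange these in membrane patches. In monocytes and macrophages members of the family are known for effects on adhesion, antigen presentation, vesicle traffic and cell fusion, where CD9 and CD81 restrain the fusion of macrophages into multinucleated cells.

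Values are FPKM, fragments scaled to transcript length and library size, which allow levels of different genes to be compared. Relative to the control, sequencing depth was estimated at 0.983 for CD137 replicate 2 and 0.988 for CD137 replicate 3. These ratios were fitted to the deposited p-values under an assumed counting test and were not read from the sources. Tnfrsf9, which checks the labels, was at 5.06 FPKM in the control and at 364 and 370 FPKM in CD137 replicates 2 and 3. All 7 macrophage markers examined were expressed, with a summed level of 2957 FPKM in the control and 1772 and 1817 FPKM in the CD137 libraries. Most of that difference lay in Lyz2, at 1693, 646 and 669 FPKM. Of the 7 markers 4 fell and 3 rose, namely Fcgr1 2.05-fold, Itgam 1.38-fold and Adgre1 1.33-fold. The control is 1 library with no replicate error, CD137 values are means ± SD of 2 libraries, and the labels do not tell whether these 2 were separate cultures. The p-values therefore rest on the spread between the 2 CD137 libraries, possibly technical and shared in part across genes. They hold no measure of spread among control libraries.

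The family ranged from among the most abundant messages to barely detected ones. Of the 25 genes, 17 reached 1 FPKM in at least 1 library and are called expressed. This is 68 percent, where all genes gave 67.0 percent. In every library 15 of the 17 were at 1 FPKM or more, while Tspan32 and Tspan8 reached it in CD137 libraries only. Cd63 and Cd53 stood highest, above 96.8 and 96.4 percent of expressed genes in the control, followed by Cd9 and Cd37. Summed over the 25 genes, the family came to 880 FPKM in the control and to 1061 and 1090 FPKM in CD137 replicates 2 and 3. Cd53 made up 19.4 percent of the sum in the control and 24.5 and 24.2 percent in the CD137 libraries. The share of Cd9 was 14.9 percent in the control and 9.67 and 10.2 percent in the CD137 libraries. Cd9 thus ranked next after Cd63 and Cd53 in all 3 libraries, with Cd37 close behind it at 102.57 against 110.79 FPKM in CD137 replicate 3, and Cd53 and Cd63 exchanged the first place.

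**Figure D1:**
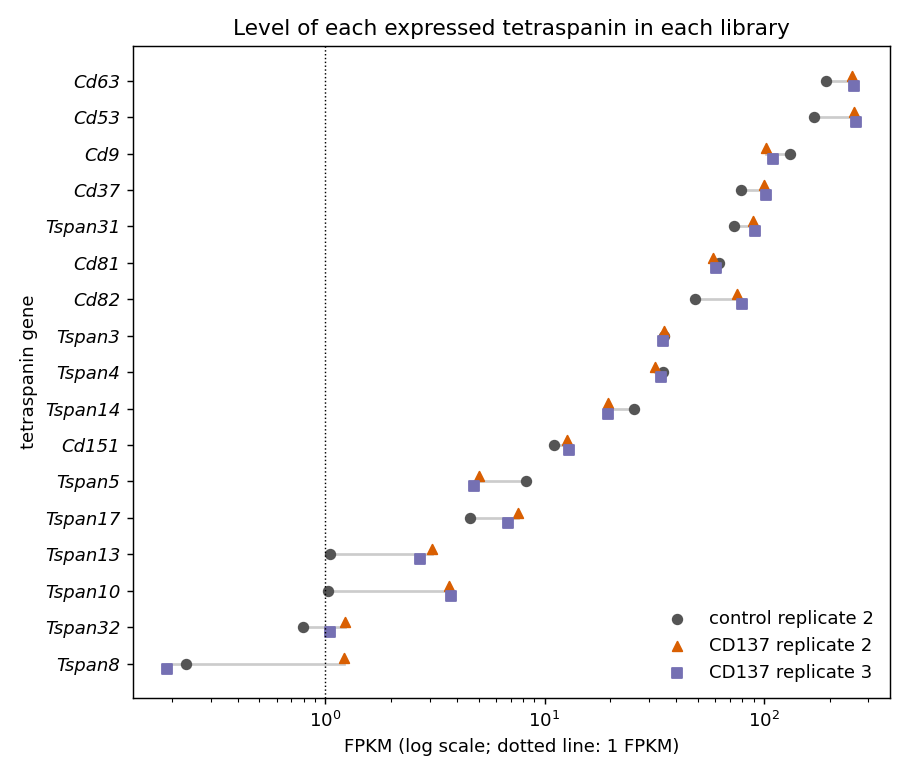
Level of the 17 expressed tetraspanins in the 3 libraries, in FPKM on a log axis, 1 row per gene in the order of the control; symbols mark the library and the dotted line is 1 FPKM. The CD137 libraries lie close together except for Tspan8, and 8 genes with higher and 3 with lower values than the control passed the test.

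Expressed tetraspanins differed between CD137 and control cells in both directions, more of them upwards. Of 17 expressed members 8 rose, 3 fell and 6 did not pass, with limma on log2(FPKM + 1) over 10720 expressed genes and a Benjamini-Hochberg adjusted p under 0.05. In all expressed genes 24.4 percent were called higher, 18.2 percent lower and 42.6 percent either way, against 47.1, 17.6 and 64.7 percent of the expressed members. The median log2 fold change was 0.31 over the members and 0.03 over all expressed genes. The genes that rose include the leukocyte tetraspanins Cd53, Cd37 and Cd82, the endosomal Cd63, and the lowly expressed Tspan10, Tspan13 and Tspan17. Cd9, Tspan5 and Tspan14 fell. Both CD137 libraries lay above the control for 10 of 17 expressed members and below it for 5 of 17. Over all expressed genes these were 5253 and 4314 of 10720, or 49.0 and 40.2 percent. The CD137 libraries differed from each other by a median of 0.05 in log2(FPKM + 1) over the members and 0.06 over all expressed genes. With 1 control library the spread comes from the CD137 pair, and the control is assumed to vary as they do. In the limma fit of all 16003 genes no gene passed; 5281 genes, 12 of the 25 members among them, had an unadjusted p under 0.05 there, and the lowest adjusted p of a member was 0.0802. The other fits, limma-voom among them, called 10 or 11 members.

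**Figure D2:**
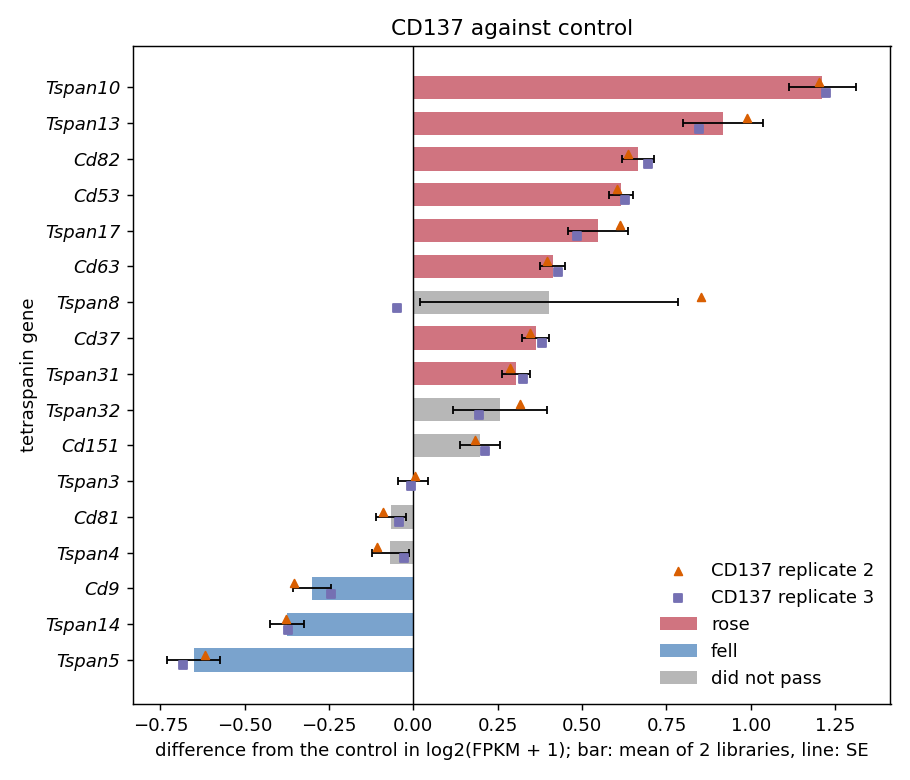
Difference of the CD137 cells from the control in log2(FPKM + 1) for the 17 expressed tetraspanins; bars are the mean of 2 CD137 libraries, black lines its SE, symbols the separate libraries, and colours the call. Values run from -0.65 for Tspan5 to 1.21 for Tspan10, and Tspan8 is the gene with the widest gap between its libraries.

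Cd53, Cd82 and Cd37, tetraspanins of leukocytes, were all higher in CD137 cells. Cd53, which helps organise receptors on leukocytes (gene ID 12508, chromosome 3 from 106758861 to 106790149 on the minus strand in mm10), was at 170.59 FPKM in the control and at 259.59 and 264.26 FPKM in CD137 replicates 2 and 3. Both CD137 libraries lay above the control and close to each other. In such bulk samples more cells that express a gene and more RNA per cell cannot be told apart. The gene rose 1.54-fold, a log2 fold change of 0.62 ± 0.03 (SE, limma adjusted p = 0.000934), on 8568 fragments in the control and 12816 and 13115 in the CD137 libraries. Fragment numbers were recovered from the deposited p-values and FPKM under the assumed counting test. Cd82, a suppressor of metastasis that also limits integrin and receptor mobility (gene ID 12521, chromosome 2 from 93419102 to 93462950, minus strand), was at 48.56, 75.98 and 79.32 FPKM in the same order. It rose 1.60-fold, with a log2 fold change of 0.67 ± 0.05 (limma adjusted p = 0.00132). Cd37, which restrains signalling in B cells and binds the beta-glucan receptor Dectin-1 (gene ID 12493, chromosome 7 from 45233632 to 45239234, minus strand), was at 78.56, 100.09 and 102.57 FPKM. Its rise of 1.29-fold was smaller (log2 fold change 0.36 ± 0.04, limma adjusted p = 0.00321). Clec7a, which encodes Dectin-1, was at 0.68 FPKM in the control and 0.80 and 1.14 FPKM in the CD137 libraries and did not pass.

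Promoters of these genes are shown because the genes moved together and because each holds GAGGAAGT, a core of the site of the macrophage factor PU.1, in 1 annotated window. That of Tspan14, which fell, is shown beside them because it holds the same word. The windows are RefSeq's for GRCm38.p6, from 250 bases before to 50 bases from an annotated start on. They were searched on both strands for GAGGAAGT, the AP-1 site TGANTCA, the E-boxes CACGTG and CATGTG, and the NF-kB consensus. Windows were matched for 24 of the 25 genes, and the 17 expressed members have 23 windows. The PU.1 word was found in 4 of these 23, in Cd37, Cd53, Cd82 and Tspan14, and in 3.26 percent of the 11057 windows of expressed genes. Genes and word were picked with the calls and matches known, so this comparison is no test. Printed are 230 bases before to 20 bases from the start on, 5′ to 3′ along the gene, with the matched words in capitals; ACTTCCTC is GAGGAAGT on the other strand.
Cd53 (chr3:106790130-106790379, minus strand, word 6 to 13 bases after the start): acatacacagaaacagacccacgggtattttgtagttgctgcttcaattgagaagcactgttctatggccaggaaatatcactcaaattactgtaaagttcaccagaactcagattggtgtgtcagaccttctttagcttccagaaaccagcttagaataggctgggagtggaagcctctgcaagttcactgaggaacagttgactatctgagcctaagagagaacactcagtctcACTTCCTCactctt
Cd37 (chr7:45238820-45239069, minus strand): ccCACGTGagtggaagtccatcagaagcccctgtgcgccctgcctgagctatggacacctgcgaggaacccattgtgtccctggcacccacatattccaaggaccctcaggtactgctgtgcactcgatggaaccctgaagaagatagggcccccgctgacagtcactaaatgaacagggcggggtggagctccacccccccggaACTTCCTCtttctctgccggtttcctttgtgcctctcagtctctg
Cd82 (chr2:93461832-93462081, minus strand): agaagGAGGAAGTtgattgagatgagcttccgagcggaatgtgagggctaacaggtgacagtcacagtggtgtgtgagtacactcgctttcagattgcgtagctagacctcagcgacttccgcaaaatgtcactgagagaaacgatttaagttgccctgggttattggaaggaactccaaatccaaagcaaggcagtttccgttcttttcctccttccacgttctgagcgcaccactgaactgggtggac
Tspan14 (chr14:40948190-40948439, minus strand): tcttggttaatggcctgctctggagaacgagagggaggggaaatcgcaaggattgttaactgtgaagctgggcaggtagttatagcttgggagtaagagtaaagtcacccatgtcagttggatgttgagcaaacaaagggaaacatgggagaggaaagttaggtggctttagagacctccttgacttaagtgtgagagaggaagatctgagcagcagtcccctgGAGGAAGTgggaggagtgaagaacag
Cd37 also holds the E-box CACGTG, present in 10.2 percent of the windows of expressed genes. The window of Cd82 is 1 of 4 annotated for the gene, and no searched word was found in the other 3. The window of Tspan14 is 1 of 2. The NF-kB consensus, present in 10.4 percent of the windows of expressed genes, was matched in 2 of the 23 member windows, those of Cd151 and Tspan5. Which start is used in these cells was not measured, and a match is a description of the letters only.

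Cd63, which marks late endosomes, lysosomes and secreted vesicles, was the most abundant tetraspanin of the control and also rose. The gene (ID 12512, chromosome 10 from 128908919 to 128912822, plus strand) was at 192.09 FPKM in the control and 252.90 and 259.15 FPKM in CD137 replicates 2 and 3. Its 1.33-fold rise (log2 fold change 0.41 ± 0.04, limma adjusted p = 0.00194) was carried by both libraries, which differed from each other by 0.04 on the log2 scale. Tspan31, a widely expressed member first found amplified in sarcoma (gene ID 67125, chromosome 10 from 127067290 to 127070261, minus strand), was at 73.07, 89.27 and 91.80 FPKM and rose 1.24-fold (limma adjusted p = 0.00537). Tspan31 lies tail to tail with Cdk4, which fell from 284 to 241 ± 1.92 FPKM. In GENCODE M21, on the same assembly, 641 of 2193 exon bases of Tspan31 are shared with Cdk4 on the other strand, while the coordinates in the deposited table do not overlap. The sources used here do not say whether counting used strand, so reads of the shared stretch cannot be told apart.

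Of Cd9 and Cd81, the pair known to restrain macrophage fusion, Cd9 fell and Cd81 did not pass. Cd9 (gene ID 12527, chromosome 6 from 125460266 to 125494755, minus strand) was at 131.42 FPKM in the control and at 102.59 and 110.79 FPKM in CD137 replicates 2 and 3. Both CD137 values lay below the control, and they differed from each other by 0.11 on the log2 scale. It fell to 0.812 of the control, with a log2 fold change of -0.30 ± 0.06 (SE, limma adjusted p = 0.0134). Without the mean-variance trend in limma the call was lost, at an adjusted p of 0.0502. Cd81 (gene ID 12520, chromosome 7 from 143052750 to 143067930, plus strand) was at 62.43, 58.65 and 60.54 FPKM and did not pass (log2 fold change -0.07 ± 0.04, limma adjusted p = 0.279). Its ratio in fragments was 0.955, with a 95 percent interval from 0.8999 to 1.013 for counting error only. The difference between the changes of Cd9 and Cd81 was not tested. Cd151, the partner of laminin-binding integrins, was at 11.05, 12.68 and 12.95 FPKM. Both CD137 libraries were above the control, and the gene lay just outside the threshold (log2 fold change 0.20 ± 0.06, limma adjusted p = 0.0511).

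The TspanC8 genes encode the subgroup that carries ADAM10 to the cell surface and steers which proteins it cuts. Of the 6 genes 4 were expressed, and 2 rose and 2 fell, where 42.6 percent of all expressed genes were called either way. Tspan14 (gene ID 52588, chromosome 14 from 40906427 to 40966940, minus strand), the most abundant of them, was at 25.56 FPKM in the control and 19.45 and 19.51 FPKM in the CD137 libraries. It fell to 0.762 of the control (log2 fold change -0.38 ± 0.05, limma adjusted p = 0.00537). Tspan5 (gene ID 56224, chromosome 3 from 138742208 to 138904433, plus strand) was at 8.26, 5.03 and 4.77 FPKM. At 0.593 of the control it had the largest decrease of the family (log2 fold change -0.65 ± 0.08, limma adjusted p = 0.00398). Tspan17 (gene ID 74257, chromosome 13) was at 4.59, 7.54 and 6.82 FPKM and rose 1.56-fold (limma adjusted p = 0.00863). Tspan10, also called oculospanin and known from pigment cells (gene ID 208634, chromosome 11 from 120442631 to 120447321, plus strand), was at 1.03 FPKM in the control and 3.67 and 3.74 FPKM in the CD137 libraries. Its rise was the largest of the family, with a log2 fold change of 1.21 ± 0.10 (limma adjusted p = 0.00176). Recovered fragments of Tspan10 numbered 38 in the control and 133 and 136 in the CD137 libraries, a ratio of 3.59 with a 95 percent interval from 2.55 to 5.19 for counting error only. Tspan15 and Tspan33 stayed at or under 0.18 FPKM in every library.

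Together the 6 genes summed to 39.7 FPKM in the control and 35.9 and 35.0 FPKM in the CD137 libraries, with a different mix. Tspan14 and Tspan5 made up 64.4 and 20.8 percent of the sum in the control, against 54.2 and 14.0 percent in CD137 replicate 2 and 55.7 and 13.6 percent in CD137 replicate 3. The share of Tspan17 was 11.6 percent in the control and 21.0 and 19.5 percent in the CD137 libraries. The share of Tspan10 was 2.59 percent in the control and 10.2 and 10.7 percent in the CD137 libraries. These shares were not tested. Adam10 itself did not pass, at 55.92 FPKM in the control and 56.97 and 55.88 FPKM in the CD137 libraries.

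**Figure D3:**
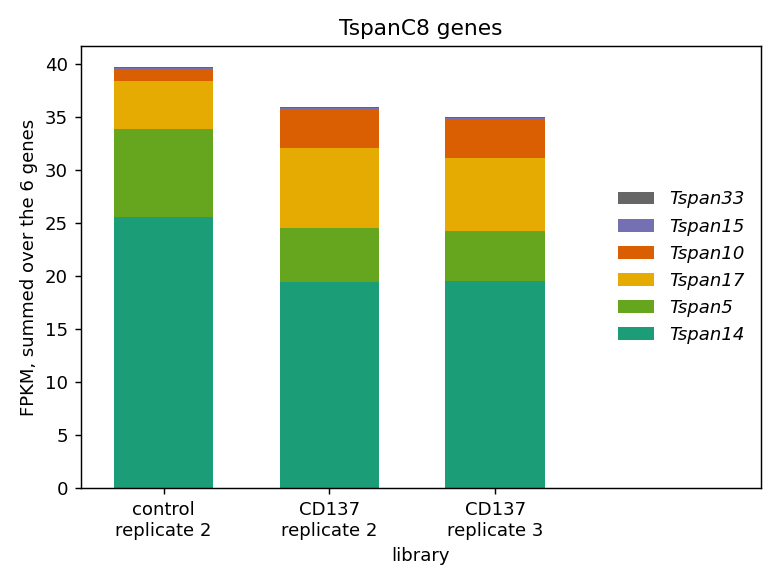
FPKM of the 6 TspanC8 genes stacked for each library. The bar of the control reaches 39.7 FPKM and the CD137 bars 35.9 and 35.0, with larger Tspan17 and Tspan10 segments and smaller Tspan14 and Tspan5 segments in both CD137 libraries.

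The promoters of Tspan10 and Tspan5 are shown because these genes had the largest rise and the largest fall of the family. The window of Tspan10 has 49.7 percent G and C and 1 CpG, that of Tspan5 73.3 percent and 43 CpGs, and the medians over windows of expressed genes are 60.7 percent and 21. Tspan10 holds CATGTG, read as CACATG on the printed strand 21 to 16 bases before the start and found in 8.63 percent of the windows of expressed genes. Among the 23 member windows it was in 3, those of Tspan10, which rose, Cd9, which fell, and Tspan3, which did not pass. Tspan5, which fell, holds the NF-kB consensus at 2 places. Capitals mark these matches.
Tspan10 (chr11:120442401-120442650, plus strand): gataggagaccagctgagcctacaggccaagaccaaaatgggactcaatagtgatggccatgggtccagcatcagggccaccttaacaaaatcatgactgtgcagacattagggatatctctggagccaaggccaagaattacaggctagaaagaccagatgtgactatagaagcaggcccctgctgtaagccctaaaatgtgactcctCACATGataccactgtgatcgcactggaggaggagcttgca
Tspan5 (chr3:138741978-138742227, plus strand): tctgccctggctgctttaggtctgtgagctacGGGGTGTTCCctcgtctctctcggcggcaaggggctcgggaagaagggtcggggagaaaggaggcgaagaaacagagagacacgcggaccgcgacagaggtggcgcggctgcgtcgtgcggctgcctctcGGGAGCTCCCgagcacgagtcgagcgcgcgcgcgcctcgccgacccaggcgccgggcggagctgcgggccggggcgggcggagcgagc

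Among Tspan13, Tspan3 and Tspan4, Tspan13 rose. Tspan13 (gene ID 66109, chromosome 12 from 36014555 to 36042478, minus strand) was at 1.05 FPKM in the control and 3.07 and 2.69 FPKM in the CD137 libraries. Its log2 fold change was 0.92 ± 0.12 (limma adjusted p = 0.00478), on 36, 103 and 91 fragments, and the ratio in fragments was 2.73 with a 95 percent counting interval from 1.91 to 4.02. Tspan3 was at 35.05, 35.14 and 34.89 FPKM, so that the control lay between the CD137 libraries (limma adjusted p = 0.983). Tspan4, known as an organiser of the migrasomes that moving cells leave behind, was at 34.69, 32.10 and 33.99 FPKM (log2 fold change -0.07 ± 0.06, limma adjusted p = 0.361). Neither Tspan3 nor Tspan4 passed the test.

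Tspan32 and Tspan8 reached 1 FPKM only in CD137 libraries, and neither passed. Tspan32, a member known from blood cells, was at 0.79 FPKM in the control and 1.23 and 1.05 FPKM in the CD137 libraries, on 22, 31 and 29 fragments. The ratio in fragments was 1.38 with a counting interval from 0.837 to 2.37, so a difference was not detectable at this depth. Tspan8, known from epithelia and their tumours, was at 0.23 FPKM in the control, whereas CD137 replicate 2 gave 1.22 FPKM and CD137 replicate 3 gave 0.19 FPKM, on 5, 24 and 3 fragments. The high value thus stood in 1 library, and the CD137 replicates lay on both sides of the control (limma adjusted p = 0.434). The log2 difference of Tspan8 from the control was 0.85 in CD137 replicate 2 and -0.05 in CD137 replicate 3. For Tspan8 the authors' deposited table lists a p-value of 2.59E-05 between the CD137 libraries; it compares libraries, not conditions. The 4 epithelial markers examined were also highest in CD137 replicate 2. Krt8 and Krt18 were at 2.60 and 2.59 FPKM in CD137 replicate 2, against 0.66 and 0.37 FPKM in CD137 replicate 3 and 0.25 and 0.32 FPKM in the control. Epcam was at 0.44 FPKM and Cdh1 at 0.65 FPKM in CD137 replicate 2, and both were at or under 0.08 FPKM in the other libraries. The 4 markers summed to 0.67 FPKM in the control and to 6.28 and 1.17 FPKM in CD137 replicates 2 and 3, and none was at 0. Their part in the value of Tspan8 was not tested.

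**Figure D4:**
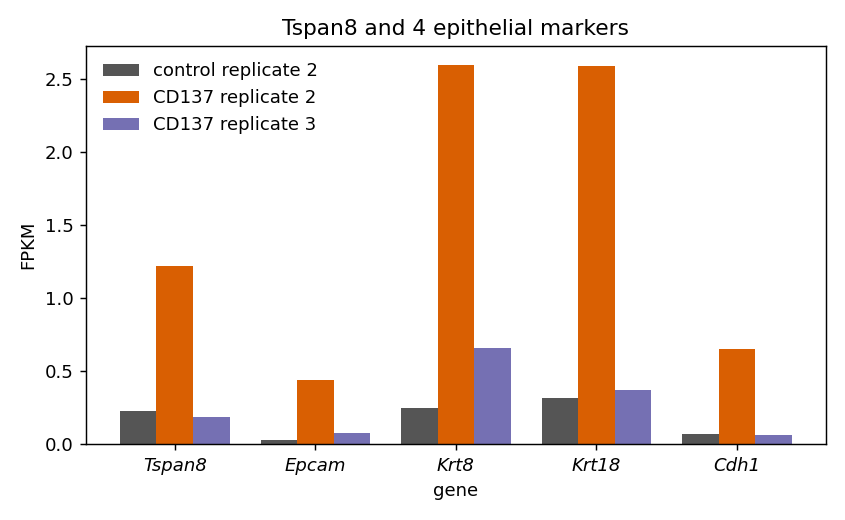
FPKM of Tspan8 and of the epithelial markers Epcam, Krt8, Krt18 and Cdh1 in the 3 libraries. For all 5 genes the bar of CD137 replicate 2 is the highest, at 1.22 FPKM for Tspan8 and 2.60 FPKM for Krt8.

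Under 1 FPKM in every library were 8 members, tissue-restricted ones among them. The highest was Rom1, a protein of photoreceptor discs, at 0.30 FPKM in the control and 0.34 and 0.41 FPKM in the CD137 libraries. Tspan15 followed at 0.18, 0.14 and 0.09 FPKM. Tspan7, known from neurons, was at 0.03, 0.06 and 0.13 FPKM on 1, 2 and 4 fragments. Tspan33, Tspan9, Tspan12, Tspan18 and Tspan1 did not exceed 0.08 FPKM, and Tspan12, which assists Wnt signalling in the retina, Tspan18 and Tspan1 were listed at 0 in at least 1 library. None of the 8 had more than 11 fragments in any library, and no difference could be read from them.

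Membrane partners of tetraspanins moved in both directions. Of 24 listed genes 16 were expressed, and 6 rose, 3 fell and 7 did not pass (median log2 fold change 0.12). Over all expressed genes 24.4 percent were called higher and 18.2 percent lower, and the share of partners that fell was near the latter. Igsf8, the immunoglobulin-like protein EWI-2 that binds CD9 and CD81 directly, fell from 75.57 to 58.87 and 62.47 FPKM (log2 fold change -0.31 ± 0.05, limma adjusted p = 0.0093). Its relative Ptgfrn was nearly absent, at or under 0.03 FPKM. The integrin beta chain Itgb1 was at 53.62, 55.90 and 53.02 FPKM and Itga4, the most abundant integrin of the list, at 256.18, 293.46 and 270.43 FPKM; neither passed. Itga6, a laminin-binding partner of CD151, rose from 1.80 to 2.57 and 2.61 FPKM, with a limma adjusted p of 0.044. Icam1, an adhesion molecule gathered in tetraspanin patches, rose 1.68-fold, and the integrin alpha chains Itga7 and Itgam 1.66-fold and 1.38-fold. Hbegf, the growth factor whose membrane form binds CD9, was at 0.21 FPKM in the control and 2.69 and 1.94 FPKM in the CD137 libraries. Hbegf and Cd36, both counted among the 6, reached 1 FPKM in the CD137 libraries only, so their entry into the test rests on the higher group and their calls are no support. With the filter on the mean of the groups, 14 genes of the list were tested, and 5 were called higher and 3 lower. That filter left out Cd36 but kept Hbegf, again through its CD137 values alone, so it does not mend the call of Hbegf.

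Of 11 listed substrates of ADAM10, 5 were expressed, of which 1 rose and 3 fell (median log2 fold change -0.20). The shares over all expressed genes were 24.4 percent higher and 18.2 percent lower. Il6ra, the interleukin-6 receptor, had the largest fall, from 17.65 FPKM to 9.51 and 10.08 FPKM (log2 fold change -0.79 ± 0.07, limma adjusted p = 0.00182). Trem2, a myeloid lipid receptor, fell from 191.39 to 157.30 and 161.97 FPKM, and Notch2 to 0.859 of the control. App rose 1.17-fold. The protease Adam17 was at 60.78, 61.50 and 60.08 FPKM and did not pass.

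In the list of multivesicular endosome and small vesicle genes, through which CD63 travels, 17 of 19 were expressed, and 7 rose and 1 fell (median log2 fold change 0.06). All expressed genes gave 24.4 percent higher and 18.2 percent lower. The number called lower was 3 with upper quartile scaling, beside 7 higher, and 3 with limma-voom on fragments, beside 6 higher. Sdcbp, which encodes syntenin-1, a direct binding partner of CD63, rose from 160.38 to 203.99 and 195.95 FPKM (log2 fold change 0.32 ± 0.04, limma adjusted p = 0.00477). The lysosomal membrane protein Lamp2 rose 1.34-fold and Lamp1 1.17-fold. Flot1, a scaffold of membrane domains, rose from 6.84 to 14.16 and 14.02 FPKM, while Flot2 was at 7.66, 7.82 and 7.42 FPKM. Hgs, an early sorting factor, fell to 0.829 of the control.

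Of 13 listed genes of macrophage and osteoclast fusion 9 were expressed, and 6 rose and none of the 9 fell by limma (median log2 fold change 0.23). The number called higher was 4 without the trend, 5 with upper quartile scaling, 5 of 8 with the filter on the mean and 7 of 8 with limma-voom on fragments, each with 0 lower. Atp6v0d2, a subunit of the proton pump with a part in fusion, rose most, from 4.00 to 9.84 and 10.32 FPKM (log2 fold change 1.15 ± 0.07, limma adjusted p = 0.0011). Dcstamp, a membrane protein needed for osteoclast fusion, rose from 12.12 to 16.04 and 15.21 FPKM (limma adjusted p = 0.0125), whereas its relative Ocstamp was at 0.46, 0.06 and 0.26 FPKM and not expressed by this limit. Cd47, which marks cells as self, rose from 41.58 to 59.51 and 59.06 FPKM, while Cd36, a lipid receptor that entered the test through its CD137 libraries only, was at 0.58, 1.31 and 1.19 FPKM. Over the 6 of 7 osteoclast markers with a value, the summed level was 16.2 FPKM in the control. It was 26.8 and 26.2 FPKM in CD137 replicates 2 and 3. Dcstamp, which is on the fusion list too, made up 12.12, 16.04 and 15.21 FPKM of these sums. The 3 expressed markers, Dcstamp, Acp5 and Mmp9, were called higher. Acp5 was at 2.86, 4.95 and 4.66 FPKM. Mmp9, at 0.65, 4.79 and 5.14 FPKM, entered through the CD137 libraries only, so its call is no support. Ctsk stayed under the limit at 0.07, 0.80 and 0.77 FPKM, the control value of Oscar is 0, and Ocstamp was lower in both CD137 libraries than in the control. The part of these markers in the values of the fusion genes was not tested, and Dcstamp and Ocstamp are on both lists. Of the 4 palmitoyltransferases listed, enzymes that attach the lipid by which tetraspanins hold together, Zdhhc20 alone passed, 1.14-fold higher (limma adjusted p = 0.048). After scaling to the upper quartile Zdhhc20 no longer passed and 1 other enzyme of the list was called lower. Shares of genes called in these lists are to be read against the 24.4 percent higher and 18.2 percent lower of all expressed genes. That baseline depends on scaling. Of 10720 expressed genes 2614 were called higher and 1949 lower in the main fit. With upper quartile scaling 2691 were called higher and 2616 lower.

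**Figure D5:**
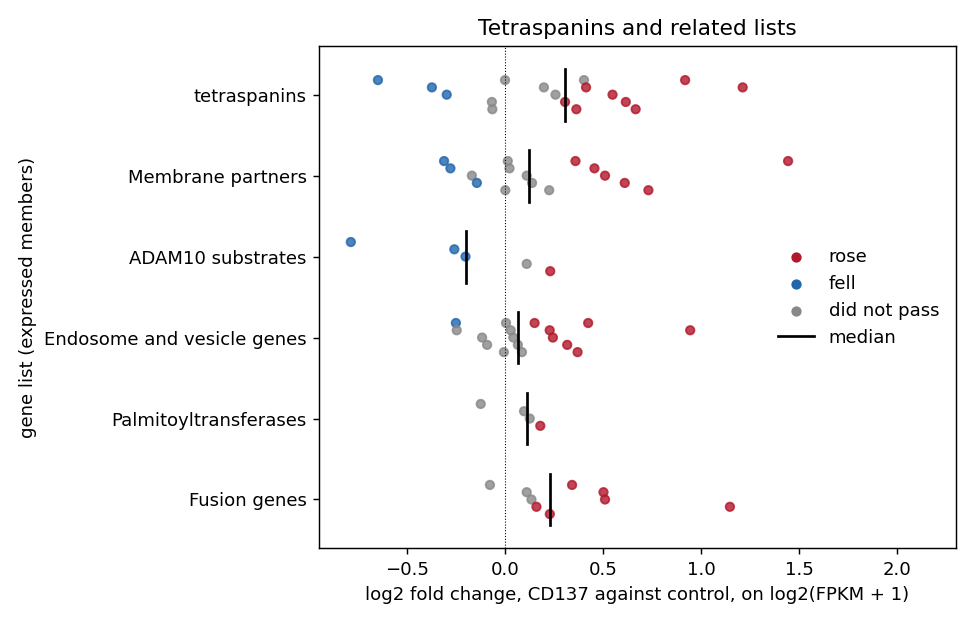
Log2 fold change of the expressed members of the tetraspanin family and of 5 related lists, CD137 against control on log2(FPKM + 1), 1 point per gene, coloured by call; black bars are medians, from -0.20 for the ADAM10 substrates to 0.31 for the tetraspanins. Genes on more than 1 list, such as Cd44, appear in each.

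Some members are neighbours on the chromosome, which the choice of members did not use. Cd151 and Tspan4 lie on the plus strand of chromosome 7 with 3754 bases and 1 listed gene, Polr2l, between them. Neither passed the test. Tspan32 and Cd81 lie on the same strand and chromosome with 33263 bases and no other listed gene between them, and neither passed, although they differ widely in level, at 0.79 and 62.43 FPKM in the control. On chromosome 2, Cd82 rose while Tspan18, 84548 bases away with no listed gene between, was at or under 0.05 FPKM in every library. The last 292 bases of Tspan4 overlap Chid1 on the other strand, and Chid1 was at 36.96, 34.99 and 38.20 FPKM and did not pass. Transcripts on the other strand also share exon bases with members in GENCODE M21, 218 of 2044 for Cd9 with Gm26728, 193 of 2741 for Cd151 with Gm10575 and 271 of 6234 for Tspan32 with Tspan32os, and reads of those bases cannot be told apart either.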

How the data were processed

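RNA-seq values of 3 libraries were taken from 1 deposited table. Its FPKM values were made by the authors and rounded to 2 decimals; the submitters' processing notes list Bowtie2, HISAT2, RSEM and mm10 with no version or role. Per the file headers the deposited table also holds log2 ratios and p-values for pairs of libraries. A further score, the false discovery rate the authors derived from a Poisson test per the file headers, reaches above 1 and entered no test. Of 21990 listed genes 16003 had values.

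The 10720 genes that reached 1 FPKM in any library were fitted with limma 3.58.1 in R 4.3.3, with a mean-variance trend, on log2(FPKM + 1). Such fold changes understate those of low genes. Tests are two-sided, and p-values were adjusted over all genes fitted, with a threshold of 0.05. The control has 1 library and CD137 has 2, which leaves 1 residual degree of freedom. The fit was tested on simulated data. There it called 0 percent of 50 genes set 1.2-fold apart and 48 percent of 50 set 1.5-fold apart. At 2-fold and 4-fold, again with 50 genes each, it called 78 and 92 percent, with 1 false call over 10626 genes. The simulated control was given the same added spread as the CD137 libraries, 1.83 percent, a value taken from the CD137 pair. False calls that come from a control that varies more were therefore not measured. Far fewer genes were changed there than were called in the data, so these percentages need not carry over. Some genes set 2-fold or 4-fold apart were missed, so a gene that did not pass may still differ, and not only by a small amount.

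Whole fragments were recovered from the deposited p-values and FPKM, with 1 solution for 15340 genes (95.9 percent), all 25 members among them. The recovery was tested on simulated data too, made with the same assumed counting test. It therefore cannot show whether the deposited p-values arose from such a test. Ratios of fragments carry exact 95 percent intervals, which cover counting error only.

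All members are named, and in each related list up to 4 genes with the smallest p past the threshold and a few direct partners; any other gene of a list was named after its values were seen. The members and lists were chosen with earlier results of these data known. Promoters come from RefSeq for GRCm38.p6, and exon overlaps from GENCODE M21.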

Additional observations from a re-analysis of the deposited data

How the results depend on the processing

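Of the 17 expressed tetraspanins 11 were called. The count was 11 with a pseudocount of 0.1, with a filter on the mean of the groups, with upper quartile scaling and with limma-voom on recovered fragments, and 10 without the mean-variance trend, where Cd9 was not called. In the fit of all 16003 genes the count over all genes went from 4563 to 0, that of tetraspanins from 11 to 0, and those of the 6 related lists with expressed genes to 0; the cause was not tested. Without the trend the count of palmitoyltransferases went from 1 to 0. No direction of a called tetraspanin reversed in these fits, or without CD137 replicate 2 or 3, which gives values with no test. Tspan8 and Tspan32 fell outside the filter on the mean, which left 15 members. No paired analysis was possible because only 1 control library has values, so the groups share 1 replicate number. With 1 control library there is 1 residual degree of freedom, and members under 1 FPKM, on at most 11 fragments, carry no comparison.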

Other observations

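Of 3 relatives of the family outside the rule, none was expressed. Upk1a, a protein of the bladder lining, was at 0.39 FPKM in the control and 0.53 and 0.48 FPKM in the CD137 libraries. Prph2, the photoreceptor partner of Rom1, and Upk1b did not exceed 0.03 FPKM.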
